A study of Mus musculus with 4 samples.

Results

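The transforming growth factor beta (TGF-beta) and bone morphogenetic protein (BMP) genes described here are 10 of the 31055 features of 1 droplet single-cell RNA-seq matrix of mouse lung tumors. They were chosen by symbol: the ligands Tgfb1, Tgfb2 and Tgfb3, the receptors Tgfbr1, Tgfbr2, Acvrl1, Eng and Bmpr2, and the inhibitory Smads Smad6 and Smad7. All 10 had UMIs (unique molecular identifiers, which count captured transcripts). The cells came from tumors of 4 female mice, all KrasLSL-G12D with both alleles of Lkb1 in the XTR form, in which the gene is trapped and can be switched back on, and with a Cre-dependent tdTomato reporter. Tumors were started with intratracheal Lenti-Cre and grew for 16 weeks. Every mouse received 4 mg doses of tamoxifen in the 2 weeks before collection. The 2 Restored mice carried the Rosa26-driven FLPo-ERT2 recombinase, which tamoxifen activates to restore Lkb1, and the 2 Non-Restored mice lacked it. Viable cells were sorted on DAPI exclusion alone, so any cell of the dissociated tumor tissue could be present.

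The matrix names its cells by column number, so no cell could be assigned to a mouse. The 4 mice therefore count as 1 sample, Restored and Non-Restored tumors were not compared, and no test between groups was possible. Each interval below is a 95% interval that covers counting error only. Intervals are exact Poisson for levels, exact binomial for shares and exact conditional for ratios of 2 counts.

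TGF-beta ligands are secreted in a latent form, held in the matrix by binding proteins, and after release signal through the paired receptors encoded by Tgfbr2 and Tgfbr1 to Smad2 and Smad3. BMP ligands signal through Bmpr2 with a type I receptor, which in endothelium is commonly ALK1, the product of Acvrl1, with endoglin (Eng) as a co-receptor, to Smad1 and Smad5. Smad6 and Smad7 are feedback inhibitors, the first mainly of the BMP branch and the second of both. In the lung this system is best known for vascular homeostasis, for alveolar repair and fibrosis and for restraining immune cells.

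After cell filters 19488 of 20351 cells remained, with a median of 1950 UMIs. A cell was assigned to the class for which it held the most of 12 marker genes, if at least 3 were present, and 16187 cells (83.1%) were gated. The 11 classes with at least 50 cells were T or NK (4592 cells), B (2033), alveolar macrophage (1942), interstitial macrophage (1838), neutrophil (1791), endothelial (1775), epithelial (838), dendritic (550), monocyte (541), mast cell or basophil (156) and stromal (113). None of the members was a gate marker. In no class did a marker of another class appear among the 10 genes with the highest fold. The epithelial class had none of its own 12 markers there, but had Sftpc, Slc34a2 and Aqp5, genes of alveolar epithelium. The summed level of the endothelial list was at most 1.05% of its endothelial value in any other class, as cells with markers of 2 families had been left out. The neutrophil and endothelial classes held 27.4% and 29.1% of the monocyte class's summed monocyte-marker level, and interstitial macrophages held 43.5% of the dendritic-list level of dendritic cells. The part of these transcripts in the results below was not tested, apart from the neutrophil values given for Tgfb1. The trapped gene, Lkb1 (Stk11), lay between 10.4 and 51.4 counts per 1000000 UMIs of a class (CPM) in the 11 classes. The reporter transcript TdTomato was at 5684 CPM in epithelial cells and 2680 CPM in alveolar macrophages and between 62.3 and 259 CPM in the other 9 classes. The GFP transcript was at 31.2 CPM in epithelial cells, 6.20 CPM in alveolar macrophages and at most 0.251 CPM in the other 9 classes. Of the 1942 alveolar macrophages, 1762 held at least 3 TdTomato UMIs. The study's own analysis left out reporter-positive cells outside the epithelium. The ratios of endothelial to other gated cells, and of the leading to the next class, that move without these cells are given at the end. Some other values without them are given below.

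The members differed in the classes that held them. Acvrl1, Eng, Bmpr2, Smad6 and Tgfb2 were each at least 13.9-fold higher in endothelial cells than in all other gated cells together, although Tgfb2 was higher still in stromal cells. Tgfb1, Tgfbr1 and Tgfbr2 were highest in myeloid or stromal cells. Smad7 was highest in endothelial cells and then in T or NK cells, and Tgfb3 was highest in stromal cells. Of the 9 members that reached 20 CPM on either side, 5 were at least 4-fold higher in endothelial cells, against 12.5% of the 7047 features that reached the same level. Tgfb2, Acvrl1, Eng and Smad6 reached 20 CPM on the endothelial side alone (2.57, 13.8, 8.37 and 0.680 CPM in other gated cells). In stromal cells 2 of 9 were at least 4-fold higher, Tgfb2 and Tgfb3, against a background of 12.6%. Both reached 20 CPM on the stromal side alone (4.64 and 1.53 CPM in other gated cells). The members were chosen with earlier results of these data known, so these counts are descriptions. In the other 9 classes 7 members reached 20 CPM and none was 4-fold higher, where 9.55% of features were in epithelial cells, 3.96% in T or NK cells, 2.76% in B cells, 6.42% in neutrophils, 5.15% in alveolar macrophages, 2.06% in interstitial macrophages, 1.75% in monocytes, 1.60% in dendritic cells and 5.12% in mast cells or basophils. Acvrl1 and Eng were at least 4-fold lower in epithelial cells with Tgfb1 (3 of 7 members, background 15.2%), in T or NK cells and in B cells with Bmpr2 (3 of 7 each, background 16.2% and 16.4%) and in neutrophils (2 of 7, background 10.2%). Alveolar macrophages were 4-fold lower in Eng and Smad7 (2 of 7, background 10.2%) and mast cells or basophils in Tgfbr1, Acvrl1 and Smad7 (3 of 7, background 15.4%). The other gated cells here include endothelial cells, with 76.6% of Acvrl1, 81.8% of Eng and 54.5% of Bmpr2 UMIs. The lower calls of these genes thus largely restate the endothelial excess. Except for Tgfb1 in epithelial cells and Smad7 in mast cells or basophils, the lower members reached 20 CPM in the other gated cells alone. No member was 4-fold lower in endothelial cells (background 11.3%), stromal cells (10.4%), interstitial macrophages (7.76%), monocytes (8.27%) or dendritic cells (8.24%).

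The promoters of 3 of the 5 endothelial-high members are shown because each gene was at least 4-fold higher in endothelial than in other gated cells and their RefSeq start sites coincide with the gene starts in the GENCODE annotation. Each is the 250 bases before the start site, 5′ to 3′ on the strand of the gene, from RefSeq promoters on build GRCm38.p6. Capitals mark matches, on either strand, to AGGAAG (an ETS-family core, ETS factors being regulators of endothelial genes), CAGAC (the Smad box), GGCGCC (a GC-rich Smad element) or GGGCGG (the GC box). No matches of different motifs overlapped.
Eng, chr2:32646345-32646594, plus strand: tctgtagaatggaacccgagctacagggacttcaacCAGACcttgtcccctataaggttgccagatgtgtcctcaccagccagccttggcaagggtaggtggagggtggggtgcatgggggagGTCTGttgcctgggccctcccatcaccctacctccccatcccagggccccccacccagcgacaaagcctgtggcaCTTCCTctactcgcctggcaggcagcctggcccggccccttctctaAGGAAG
Smad6, chr9:64022060-64022309, minus strand: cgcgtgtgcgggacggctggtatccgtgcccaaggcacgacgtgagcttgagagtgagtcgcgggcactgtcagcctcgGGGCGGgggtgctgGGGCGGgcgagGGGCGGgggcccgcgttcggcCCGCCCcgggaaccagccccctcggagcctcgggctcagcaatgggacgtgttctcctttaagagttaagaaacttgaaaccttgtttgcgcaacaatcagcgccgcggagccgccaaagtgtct
Tgfb2, chr1:186705990-186706239, minus strand: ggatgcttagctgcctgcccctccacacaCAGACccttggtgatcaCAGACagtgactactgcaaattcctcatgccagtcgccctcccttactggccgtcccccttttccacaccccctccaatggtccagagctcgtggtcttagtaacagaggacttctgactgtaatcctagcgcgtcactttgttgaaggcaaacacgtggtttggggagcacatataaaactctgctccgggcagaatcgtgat
The Eng window held 2 matches to AGGAAG, 52 and 6 bases before the start, and 2 to CAGAC. The Smad6 window held 4 matches to GGGCGG, between 171 and 125 bases before the start, and none to the other 3 motifs. The Tgfb2 window held 2 matches to CAGAC, and an exon of the opposite-strand gene Gm29491 lies in it. Over 32851 promoter windows of this length, 29.5% held AGGAAG, 42.2% held CAGAC, 9.59% held GGCGCC and 32.7% held GGGCGG. None of the 4 motifs searched was in all 3 promoters, while CAGAC was in those of Eng and Tgfb2. Each motif found was in at least 29.5% of all promoter windows.

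Tgfb1 (chr7:25687002-25705077), the most widely expressed of the 3 ligands in mammals and the main one of leukocytes, was found in every class and was highest in monocytes. Its level was 378 CPM in monocytes (95% interval 348 to 410), 281 CPM in interstitial macrophages and 267 CPM in alveolar macrophages. Neutrophils had 223 CPM, mast cells or basophils 212, dendritic cells 175, endothelial cells 163, B cells 149, T or NK cells 135 and stromal cells 129.7. Epithelial cells, which hold the tumor cells, were lowest at 25.5 CPM (20.4 to 31.4). The difference of monocytes over interstitial macrophages, log2 0.43 (0.30 to 0.56), and that of stromal over epithelial cells, log2 2.35 (1.82 to 2.87), were larger than counting error. The 2 macrophage classes could not be separated (log2 0.07, interval from -0.01 to 0.15), and neither could any pair of neighbors from neutrophils down to stromal cells. Epithelial cells were 8.55-fold lower than all other gated cells together. Monocytes led per UMI and not per cell: counted as UMIs per cell, the log2 ratio of monocytes to interstitial macrophages was -0.17. In the 1562 neutrophil-gated cells with under 2 monocyte markers Tgfb1 was at 204 CPM, and in the other 229 at 266 CPM.

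Among gated cells the 2 macrophage classes held the largest shares of the Tgfb1 UMIs, and the alveolar share depended on reporter-carrying cells. Of 9081 Tgfb1 UMIs in gated cells, 31.2% (30.3 to 32.2) were in alveolar macrophages, 24.6% in interstitial macrophages and 12.5% in T or NK cells, while these classes held 23.8%, 17.8% and 18.7% of all gated UMIs. Epithelial cells held 0.969% of the Tgfb1 UMIs and 7.72% of all gated UMIs. With non-epithelial cells of at least 3 TdTomato UMIs left out, the alveolar macrophage share was 3.18%, because nearly all of these cells carried the reporter. Per UMI, Tgfb1 was at 270.2 CPM (260.0 to 281) in the 1762 reporter-carrying alveolar macrophages and at 227 CPM (197 to 261) in the other 180, a log2 ratio of 0.25 (0.04 to 0.46).

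Tgfb2 (chr1:186622792-186705989), a ligand best known from the developing heart and vasculature, was sparse, with 234 UMIs in gated cells. Its level was highest in stromal and endothelial cells. Stromal cells had 72.6 CPM (28 UMIs), endothelial cells 36.0 CPM (128 UMIs), epithelial cells 7.81 CPM (27 UMIs) and alveolar macrophages 4.23 CPM (45 UMIs). The other 7 classes had 2 UMIs or fewer each. Each of the first 4 classes was higher than the next beyond counting error, stromal over endothelial cells by log2 1.01 (0.37 to 1.61). The endothelial level was 14.0-fold that of all other gated cells. Because endothelial cells were more numerous than stromal cells, 54.7% of the gated Tgfb2 UMIs were endothelial and 11.97% were stromal. Alveolar macrophages, with 23.8% of all gated UMIs, held the second largest share of Tgfb2 at 19.2%, and epithelial cells held 11.5%. Over the other settings the endothelial share ranged from 53.6% to 65.6%.

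Tgfb3 (chr12:86056745-86079041), a ligand known from palate formation and mesenchyme, was stromal. Stromal cells had 90.8 CPM (35 UMIs, interval 63.2 to 126), B cells 6.87 CPM (23 UMIs) and epithelial cells 5.21 CPM (18 UMIs). The log2 ratio of stromal to B cells was 3.72 (2.92 to 4.55), and B and epithelial cells were not separated by their counts. In alveolar macrophages, monocytes and mast cells or basophils Tgfb3 had 0 UMIs, which in alveolar macrophages allows up to 0.282 CPM. Stromal cells held 34.0% of the 103 gated Tgfb3 UMIs and 0.862% of all gated UMIs. The annotated gene overlaps Ttll5 on the opposite strand, and Ttll5 was at 5.38 CPM in B cells and 7.78 CPM in stromal cells. In alveolar macrophages, where Tgfb3 had 0 UMIs, Ttll5 had 88 UMIs (8.27 CPM). The sources used here do not state whether counting used strand, and the part of Ttll5 reads in the Tgfb3 counts was not tested.

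**Figure D1:**
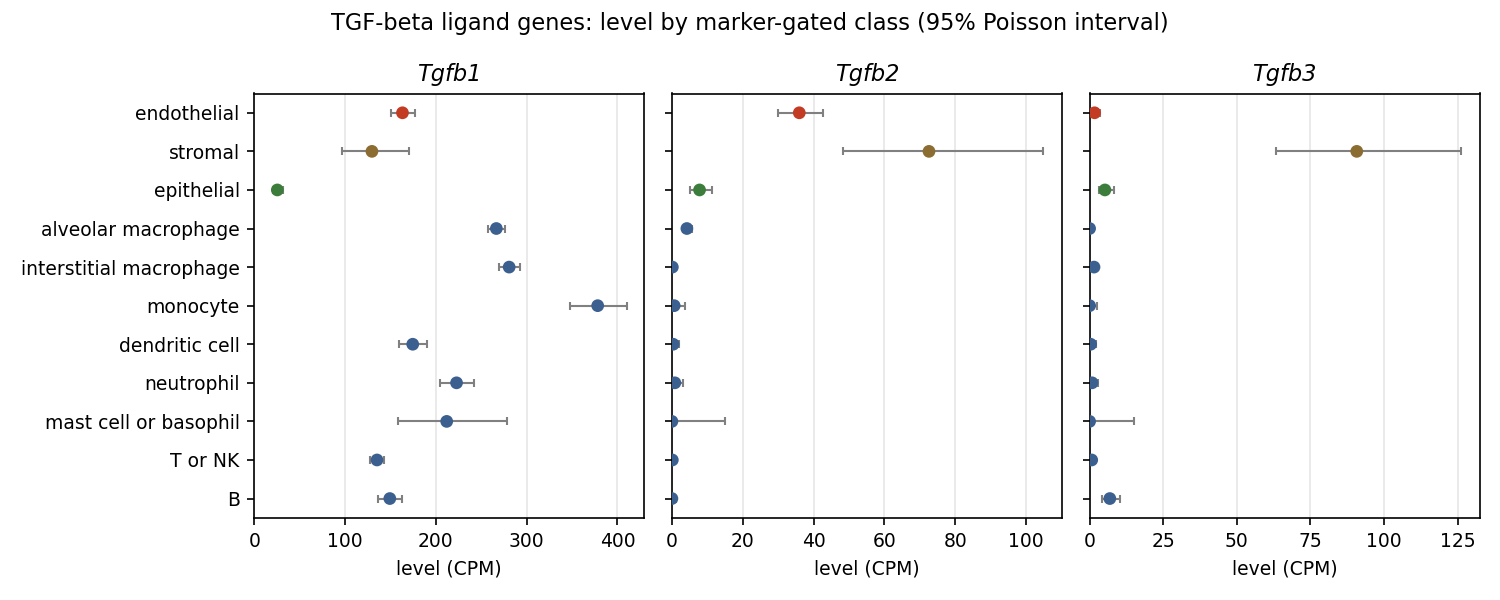
Level in counts per 1000000 UMIs (x axis, linear) of the 3 ligand genes in the 11 gated classes (y axis), with points at the pooled value of each class and bars for the 95% Poisson interval. Tgfb1 is spread over all classes with 378 CPM in monocytes and 25.5 CPM in epithelial cells, while Tgfb2 and Tgfb3 lead in stromal cells at 72.6 and 90.8 CPM.

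**Figure D2:**
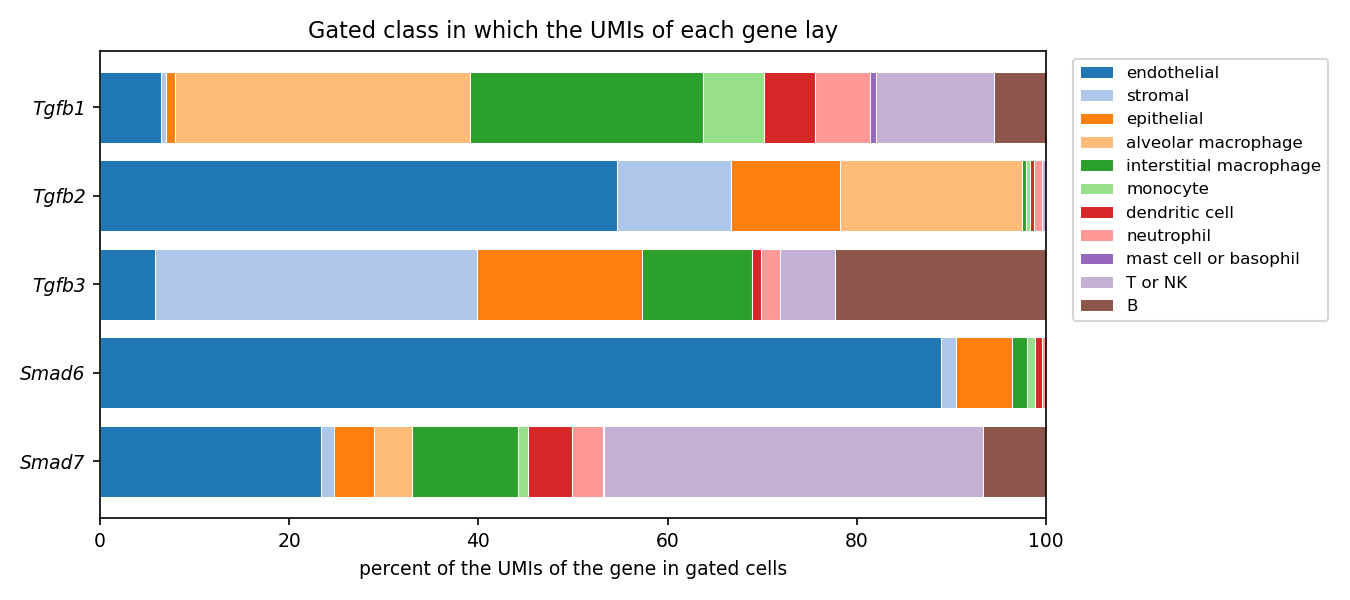
Share of the UMIs of each ligand and inhibitory Smad gene (x axis, percent of its UMIs in gated cells) that lay in each class (colors), 1 bar per gene. Alveolar macrophages hold 31.2% of Tgfb1, endothelial cells hold 54.7% of Tgfb2 and 88.9% of Smad6, and T or NK cells hold 40.0% of Smad7.

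The receptors of TGF-beta itself were not highest in endothelial cells. Tgfbr2 (chr9:116084293-116175360), the type II receptor that binds the ligand, was highest in stromal cells at 381 CPM (322 to 448), then in alveolar macrophages at 245 CPM. Interstitial macrophages had 99.0 CPM, endothelial cells 95.3, T or NK cells 89.4, B cells 75.9, epithelial cells 69.4, neutrophils 68.6, monocytes 52.9, mast cells or basophils 48.9 and dendritic cells 45.4. Stromal cells exceeded alveolar macrophages by log2 0.64 (0.39 to 0.88), and alveolar exceeded interstitial macrophages by log2 1.30 (1.19 to 1.42). Of the neighboring pairs below these 2 classes, T or NK over B cells alone was past counting error. Counted per cell, stromal cells and alveolar macrophages changed places, with a log2 ratio of -0.04. The endothelial level was 1.32-fold lower than that of other gated cells (log2 -0.40, from -0.56 to -0.24). With reporter-carrying non-epithelial cells left out this ratio turned to log2 0.10, with an interval from -0.07 to 0.27.

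Tgfbr1 (chr4:47353222-47414931), the type I receptor kinase, was a macrophage-high gene. Interstitial macrophages had 190.0 CPM (181 to 200), alveolar macrophages 142 CPM and neutrophils 84.0 CPM. The remaining classes lay between 62.3 CPM in dendritic cells and 12.2 CPM in mast cells or basophils, with endothelial cells at 40.2 and epithelial cells at 43.1 CPM. Interstitial exceeded alveolar macrophages by log2 0.42 (0.32 to 0.53). From dendritic cells to B cells no neighbors in the order were separated. Endothelial cells were 2.43-fold lower than other gated cells. The TGF-beta receptor pair was therefore not parallel across the macrophages, Tgfbr2 being higher in the alveolar and Tgfbr1 in the interstitial class.

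Acvrl1, Eng and Bmpr2, the members that are receptors of the BMP branch, were highest in endothelial cells. Acvrl1 (chr15:101128522-101145336), which encodes ALK1, was at 523 CPM (500 to 547) in endothelial cells and 31.3 CPM in interstitial macrophages. Stromal cells had 23.3 CPM (9 UMIs), monocytes 21.3, dendritic cells 18.0, alveolar macrophages 16.9 and neutrophils 9.20, and the other 4 classes had 2.09 CPM or less. The endothelial level exceeded the next class by log2 4.06 (3.87 to 4.26) and all other gated cells by 37.9-fold. Cells with at least 1000 UMIs were thinned to 1000 UMIs, and cells with fewer were left out. After this, 39.1% of 1592 endothelial cells had an Acvrl1 UMI, against 0.191% of 4190 T or NK cells. Before thinning, 58.7% of all 1775 endothelial cells had one. The median depths of all cells of these 2 classes were 1844 and 1612 UMIs.

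Eng (chr2:32646595-32682669), the co-receptor endoglin, was at 437 CPM (416 to 459) in endothelial cells, 83.0 CPM (32 UMIs) in stromal cells and 25.2 CPM (201 UMIs) in interstitial macrophages. Dendritic cells had 18.7 CPM and monocytes 11.6, and no other class exceeded 2.93 CPM. The endothelial level was 52.2-fold that of other gated cells. Stromal Eng was 19.0% of the endothelial level, and interstitial macrophages had 5.77% of the endothelial Eng level and 5.98% of the endothelial Acvrl1 level. The summed endothelial list was at 1.00% of its endothelial value in stromal cells and 0.160% in interstitial macrophages, a level that the gates lower by construction, and the part of endothelial RNA in these values was not tested. The opposite-strand gene Fpgs overlaps Eng, and it was at 8.71 CPM in endothelial cells and at most 15.6 CPM in any class.

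Bmpr2 (chr1:59763400-59879014), the type II BMP receptor whose loss is known from heritable pulmonary hypertension, was at 543 CPM (519 to 568) in endothelial cells and 129.7 CPM in stromal cells. Alveolar macrophages had 71.6 CPM, epithelial cells 63.4, monocytes 49.7, neutrophils 39.3, dendritic cells 34.6, interstitial macrophages 29.5 and mast cells or basophils 24.5. T or NK cells had 7.88 CPM and B cells 2.09 CPM. It was thus the least restricted of the endothelial-high receptors, at 13.9-fold over other gated cells. With cells weighted equally the log2 ratio was 4.42 for Bmpr2 and 5.86 for Acvrl1, and counted as UMIs per cell the endothelial level exceeded that of the next class by log2 1.30 for Bmpr2, 1.63 for Eng and 2.95 for Acvrl1. From alveolar macrophages to mast cells or basophils no neighbors differed beyond counting error, whereas T or NK cells were below mast cells or basophils and B cells were below T or NK cells.

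Smad6 (chr9:63953076-64022059), the inhibitor of BMP-activated Smads, had the highest ratio of endothelial to other gated cells of the members, while its ratio to the next class was log2 2.60 (1.23 to 4.49), below that of Acvrl1. Of 252 gated UMIs, 224 (88.9%) were in endothelial cells, where its level was 63.0 CPM (55.0 to 71.8). Epithelial cells had 15 UMIs (4.34 CPM) and stromal cells 4 UMIs (10.4 CPM), and no other class had more than 4. T or NK cells, B cells, alveolar macrophages and mast cells or basophils had 0 UMIs, which in T or NK cells allows up to 0.358 CPM. The ratio of endothelial to other gated cells was 92.6-fold (log2 6.53, from 5.96 to 7.16).

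Smad7, the inhibitor of both branches, had a different distribution. Endothelial cells had 273 CPM (256 to 291), T or NK cells 199 CPM, stromal cells 140.0, B cells 82.7, dendritic cells 69.8, interstitial macrophages 58.2, neutrophils 56.0, epithelial cells 50.6, monocytes 28.4, mast cells or basophils 20.4 and alveolar macrophages 15.9. The first 3 classes were each above the next beyond counting error, endothelial over T or NK cells by log2 0.46 (0.34 to 0.57). At 3.54-fold over other gated cells it stayed under 4-fold. T or NK cells held 40.0% of its gated UMIs and endothelial cells 23.4%. Alveolar macrophages were 7.34-fold lower than all other gated cells, while their Tgfbr1 and Tgfbr2 levels were second in the order of classes.

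**Figure D3:**
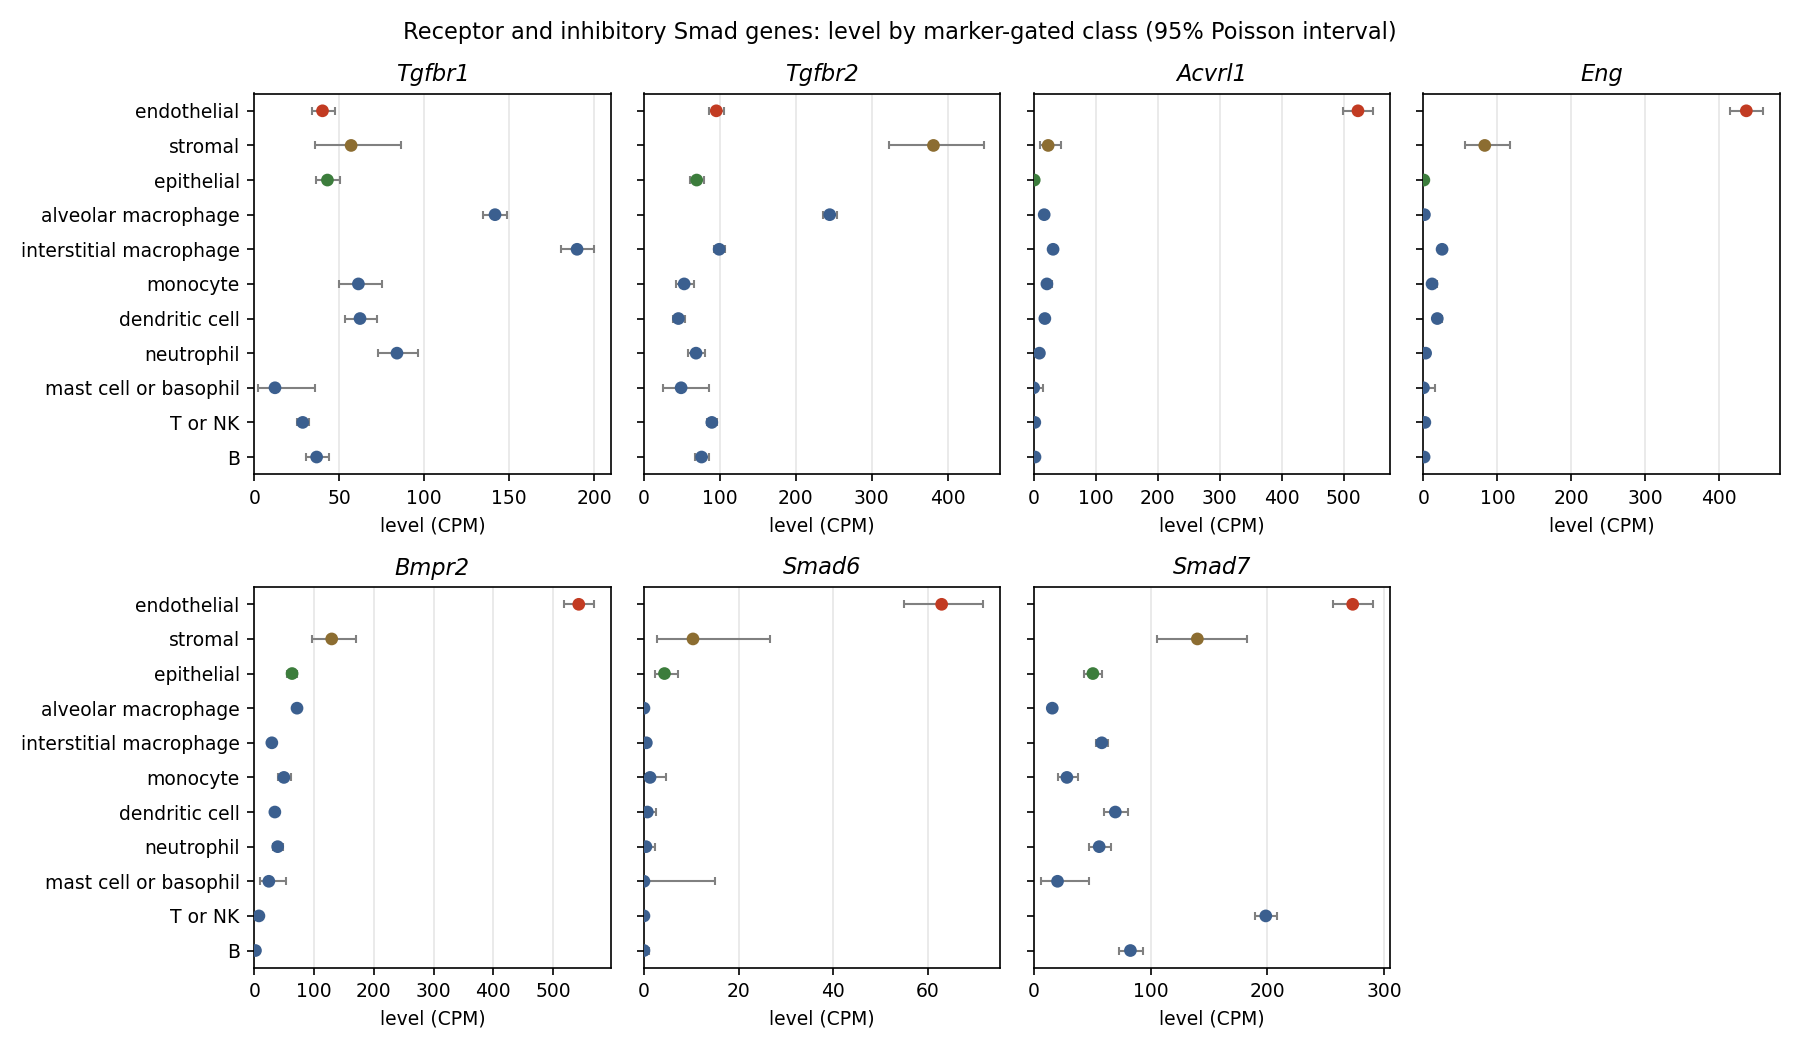
Level in counts per 1000000 UMIs (x axis, linear, a separate range for each gene) of the 5 receptor and 2 inhibitory Smad genes in the 11 gated classes (y axis), with 95% Poisson intervals. Acvrl1, Eng, Bmpr2 and Smad6 stand far to the right in endothelial cells (523, 437, 543 and 63.0 CPM), Tgfbr1 in interstitial macrophages (190.0 CPM) and Tgfbr2 in stromal cells (381 CPM).

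**Figure D4:**
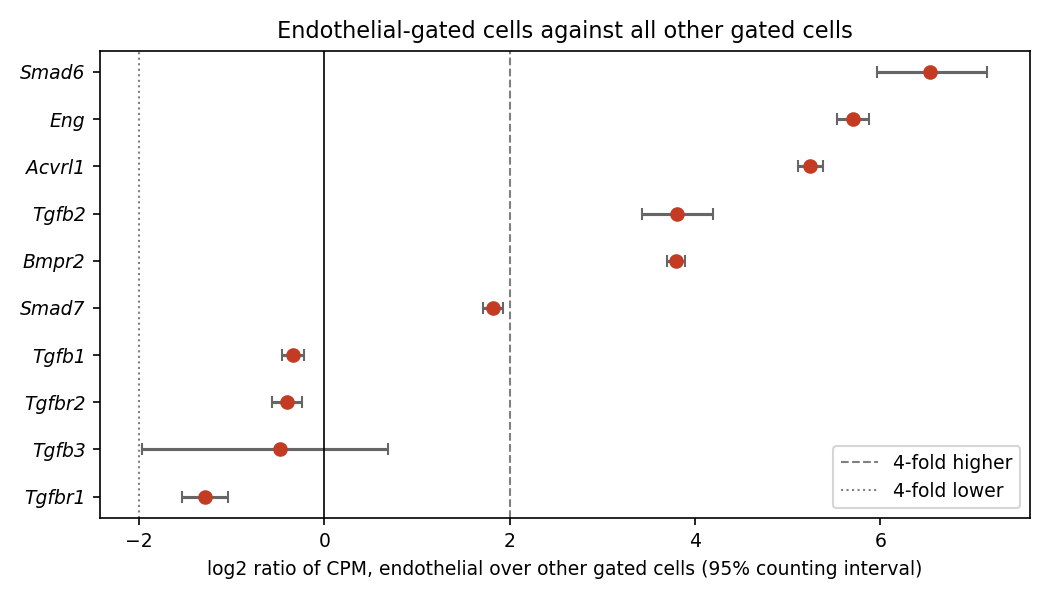
Ratio of the level in endothelial cells to that in all other gated cells (x axis, log2) for each of the 10 members (y axis), with 95% conditional intervals and dashed and dotted lines at 4-fold higher and lower. Smad6 (6.53), Eng (5.71), Acvrl1 (5.25), Tgfb2 (3.81) and Bmpr2 (3.79) lie past the upper line, Smad7 (1.82) just below it, and the other 4 members below 0.

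Within endothelium the members differed between vessel types. Sub-gates on vessel markers gave 1150 general capillary, 77 aerocyte (the large capillary cell of gas exchange), 102 artery, 65 vein and 18 lymphatic cells. The other 363 endothelial cells entered no sub-gate. Smad6 was at 242 CPM (37 UMIs) in aerocytes, 91.8 CPM (17) in artery cells, 51.4 CPM (122) in general capillary cells and 16.2 CPM (3) in vein cells. Aerocytes exceeded general capillary cells by log2 2.23 (1.66 to 2.78) for Smad6, 1.34 (1.12 to 1.56) for Bmpr2 and 1.10 (0.86 to 1.34) for Acvrl1. Eng was 0.48 higher on the log2 scale (0.16 to 0.79). Of 9 members at 20 CPM or more in either sub-gate, these 3 were at least 2-fold higher in aerocytes, against 18.3% of 6724 features, and Tgfbr1 was at least 2-fold lower with 3 UMIs (background 9.88%), with an interval that spans 0 (log2 -1.19, from -3.49 to 0.40). In artery cells 1 of 9 members, Tgfb2, was at least 2-fold higher (background 7.65%) and 1, Tgfbr1 with 3 UMIs, at least 2-fold lower (6.13%). The interval was 0.15 to 2.17 for Tgfb2 and, spanning 0, from -3.76 to 0.12 for Tgfbr1. In both comparisons Tgfbr1 reached 20 CPM in general capillary cells alone.

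Between aerocyte and vein cells Tgfb2 ran the other way from Smad6, Bmpr2 and Acvrl1. In artery cells Tgfb2 exceeded general capillary cells, as did Smad6 by log2 0.84 (0.01 to 1.57). Bmpr2 exceeded them there by log2 0.65 (0.40 to 0.90) and Smad7 by 0.60 (0.24 to 0.95). Tgfb2 was at 184 CPM (34 UMIs in 65 cells) in vein cells, 59.4 CPM (11) in artery cells, 25.3 CPM (60) in general capillary cells and at 0 UMIs in aerocytes, which allows up to 19.6 CPM. Vein cells exceeded general capillary cells by log2 2.86 (2.21 to 3.49). Vein cells were lower than general capillary cells in Acvrl1 (log2 -0.87, from -1.31 to -0.47) and Eng (log2 -0.67, from -1.11 to -0.27). The vein sub-gate was deeper, with a median of 2683 against 1904 UMIs. Tgfb2 was the 1 member at least 2-fold higher in vein cells, against 8.94% of features, and Smad6 the 1 at least 2-fold lower, against 11.8%. Of these 2 sub-gates, Smad6 reached 20 CPM in general capillary cells alone.

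**Figure D5:**
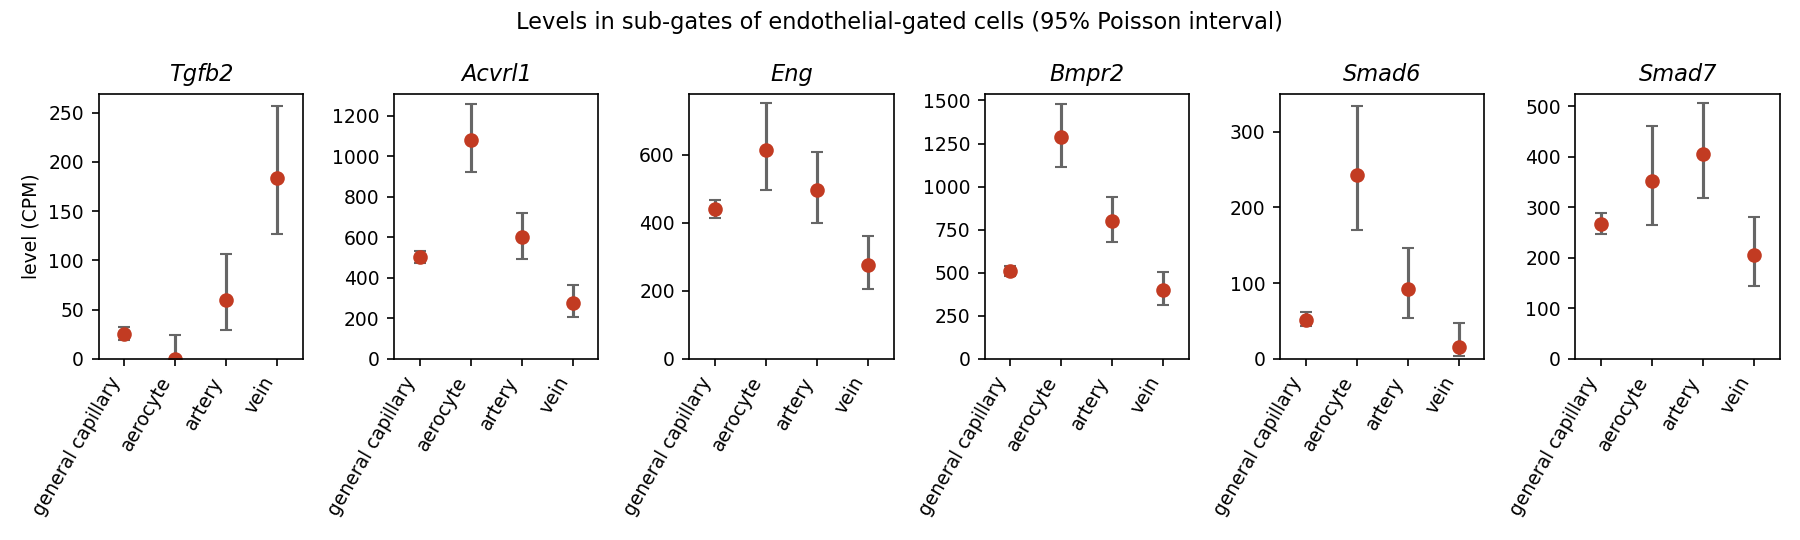
Levels in counts per 1000000 UMIs (y axes, linear, from 0) of 6 members in 4 sub-gates of endothelial cells (x axes), with 95% Poisson intervals. Acvrl1, Bmpr2 and Smad6 are highest in aerocytes (1079, 1289 and 242 CPM) and Tgfb2 in vein cells (184 CPM).

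Related cells of other lineages also differed. Among epithelial cells Tgfb2 was at 42.8 CPM (17 UMIs) in 151 alveolar type I-like cells. It was at 2.58 CPM (7 UMIs) in 587 alveolar type II-like cells, a log2 ratio of 4.06 (2.71 to 5.57). Both sub-gates held the reporter TdTomato, at 6023 and 5705 CPM, so this is not a contrast of normal alveolar epithelium. Tgfb2 was the 1 of 6 members past 2-fold there, against 14.0% of features, and reached 20 CPM in the type I-like cells alone. Alveolar macrophages exceeded interstitial macrophages in Bmpr2 by log2 1.28 (1.07 to 1.497) and fell below them in Smad7 (log2 -1.87, from -2.14 to -1.62) and Eng (log2 -4.26, from -5.16 to -3.48). These were the 2 of 7 members at least 2-fold lower in alveolar macrophages, against 8.92% of features. Both reached 20 CPM in interstitial macrophages alone. With reporter-carrying cells left out, the Eng ratio was -1.92 and the Smad7 ratio -1.499.

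Non-classical monocytes, the patrolling type, had more TGF-beta receptor transcripts than classical monocytes. Tgfbr1 was at 157 CPM (50 UMIs in 142 cells) and 33.4 CPM (38 UMIs in 367 cells), a log2 ratio of 2.23 (1.60 to 2.88). Bmpr2 (log2 1.34, from 0.60 to 2.06) and Tgfbr2 (log2 1.27, from 0.56 to 1.96) were also higher, and Tgfb1 by log2 0.63 (0.36 to 0.90). Acvrl1 was lower, with 1 UMI against 31, and reached 20 CPM in classical monocytes alone. Of 6 members at 20 CPM or more, 3 were at least 2-fold higher, against 17.4% of features, and 1 was at least 2-fold lower, against 5.64%. The median depth was 1735 UMIs in non-classical and 3004 in classical cells.

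Among lymphocytes, CD4 T cells had the highest Tgfbr2 level of the 4 T and NK sub-gates and more Tgfb1 than CD8 T cells. Of the 4592 T or NK cells, 2749 entered no sub-gate and are not described here. Tgfb1 was at 174 CPM in 529 CD4 T cells and 78.2 CPM in 736 CD8 T cells (log2 -1.15, from -1.50 to -0.81), and regulatory T cells at 214 CPM and NK cells at 197 CPM were not separated from CD4 T cells. Tgfbr2 was at 109 CPM in CD4 T cells, 72.8 in CD8 T cells, 42.4 in regulatory T cells (26 UMIs) and 30.3 in NK cells (14 UMIs). Tgfb1 was the 1 of 4 members at least 2-fold lower in CD8 T cells (background 8.72%) and Tgfbr2 the 1 of 4 in NK cells (background 8.52%). In regulatory T cells Tgfbr2 was the 1 of 5 members at least 2-fold lower (background 4.77%) and Bmpr2, with 15 against 12 UMIs, the 1 at least 2-fold higher (background 9.31%), with an interval that spans 0 (log2 1.12, from -0.08 to 2.35). Bmpr2 reached 20 CPM in regulatory T cells alone. The log2 ratio of Tgfbr2 to CD4 T cells was -1.36 (-2.03 to -0.74) for regulatory T cells and -1.84 (-2.76 to -1.04) for NK cells. Mature dendritic cells, which express migration genes, had 79.1 CPM of Tgfb1 and 14.4 CPM of Tgfbr2, against 209.5 and 61.5 CPM in type 2 conventional dendritic cells, log2 ratios of -1.41 (-1.90 to -0.94) and -2.10 (-3.36 to -1.05). These were the 2 of 6 members at least 2-fold lower there, against 19.5% of features. Tgfbr2 reached 20 CPM in the type 2 conventional cells alone.

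The other 56 listed genes of the pathway were weighted to stromal cells. Of 41 that reached 20 CPM on either side, 22 were at least 4-fold higher in stromal cells than in other gated cells (12.6% of all features were) and 2 lower (10.4%), with a median log2 ratio of 2.50 beside 0.05 over all features tested. In endothelial cells 11 of 31 were at least 4-fold higher (12.5% of features) and 3 lower (11.3%), with a median of 0.75 beside 0.23. In T or NK cells and in B cells none of 23 was 4-fold higher, against 3.96% and 2.76% of features. In each of the 2 classes 11 of 23 were 4-fold lower, against 16.2% and 16.4% of features. A gene could reach 20 CPM through the class itself alone.

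Ligands were divided between lineages. Bmp4, a BMP of the distal lung, was at 236 CPM in epithelial cells and 114 CPM in stromal cells. Bmp5 (132 CPM) and Bmp3 (72.6 CPM) were highest in stromal cells. Inhba, the subunit of activin A, was highest in alveolar macrophages at 97.2 CPM, with 72.6 CPM in stromal cells. Of the receptors, Bmpr1a (88.2 CPM), the betaglycan gene Tgfbr3 (80.4 CPM) and Acvr1 (41.5 CPM) were highest in stromal cells, and the activin receptor Acvr2a was highest in endothelial cells (30.4 CPM).

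Of 8 tested genes that store or release latent TGF-beta, 6 were at least 4-fold higher in stromal cells (background 12.6%) and 1, Nrros, lower (10.4%). At least 4-fold higher were also 3 of 6 in endothelial cells (12.5%) and 2 of 5 in epithelial cells (9.55%). Thbs1, an activator of the latent complex, was at 843 CPM in stromal cells and 244 CPM in monocytes. The latent binding proteins Ltbp2 and Ltbp4 were at 656 and 428 CPM in stromal cells, and the next class had 0.868 and 48.3 CPM. Nrros, which anchors latent TGF-beta on myeloid cells, was at 192 CPM in monocytes and 94.1 CPM in interstitial macrophages and had 0 UMIs in stromal cells. All 6 of the secreted antagonists that reached 20 CPM were at least 4-fold higher in stromal cells, among them Fstl1 (677 CPM), Fst (239 CPM) and Grem1 (70.0 CPM).

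Of the signal-carrying Smads 1 of 4 tested, and of the target genes 3 of 6, were at least 4-fold higher in endothelial cells (background 12.5%). Smad1 was at 119 CPM in endothelial cells, 4.46-fold over other gated cells, and Smad5 was at 58.2 CPM. The common partner Smad4 was at 78.6 CPM in neutrophils and 73.1 CPM in endothelial cells, and Smad2 at 33.7 CPM in endothelial cells and 31.6 CPM in monocytes. Tmem100, a target of ALK1 signaling, was at 651 CPM in endothelial cells and 83.0 CPM in stromal cells, and Id3, an inhibitor of helix-loop-helix factors induced by BMP, was at 1081 CPM in stromal and 736 CPM in endothelial cells. Ctgf, a target of TGF-beta, was stromal (723 CPM), and Id2 was highest in dendritic cells (613 CPM). Among the intracellular inhibitors, Pmepa1 was at 835 CPM in stromal cells and 497 CPM in interstitial macrophages, Skil at 303 CPM and Tgif1 at 155 CPM in interstitial macrophages, and Ski at 149 CPM in alveolar macrophages.

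The genes most alike to each member in their pattern over the 11 classes were taken by Pearson's r of log2(CPM + 10) among 5882 genes. The classes come from 1 pooled matrix and differ in depth, and an r over 11 points is a description. Smad6 was most like C130074G19Rik (r = 0.996), Ecscr (0.995, a gate marker) and Mcc (0.994). Acvrl1 was most like Tmcc2, Nostrin and Eng (r = 0.951, 0.943 and 0.924), Eng like Plscr2, Phf11d and Hotairm1 (0.957 to 0.955) and Bmpr2 like Plod1, Erf and Dync1li2 (0.946 to 0.931). Tgfb2 was most like Pdzd2, Sgce and Ginm1 (0.986 to 0.985) and Tgfb3 like Efemp1, Bmp3 and Col6a2, the last a gate marker (0.978 to 0.976). Tgfbr1 was most like Hexa, Fuca1 and Ctsz, which encode lysosomal proteins (0.935 to 0.898), and Tgfbr2 like Fblim1, Fbxo32 and Fstl1 (0.957 to 0.910). For Tgfb1 the nearest were Abi1, Gdpd3 and Vim (0.915 to 0.892) and for Smad7 H2-Q4, Ier5l and Arap2 (0.919 to 0.894).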

How the data were processed

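The authors used Cell Ranger 3.0.2 on 10x Genomics 3′ libraries, with GFP and TdTomato added to the mm10 reference, and deposited 1 matrix of raw UMI counts per feature and cell, pooled over the mice (58624795 UMIs, at least 500 per cell, no map from cells to mice). Here, cells with under 200 genes (52 cells), over 2713 genes or over 13.4% mitochondrial UMIs (the 98th percentiles) were left out, the 200-gene minimum being the one the study states. Cells were gated on 13 lists of 12 markers each. Cells with at least 3 markers of a second lineage (579) were left out as possible doublets, and no doublet caller was run. Levels are the summed UMIs of a gene per 1000000 summed UMIs of the class (CPM). Sub-gates needed 2 listed markers (3 for alveolar types). Exact intervals were computed with scipy 1.17.1 in Python 3.11.15 and were tested on simulated data. A fold of 4 (2 between sub-gates) at 20 CPM or more stood in for a test. A count of 0 was set at 3 counts for a limit. Named genes were all members, the 4 highest pathway genes of each role, which were a fixed list, and the 3 genes most like each member (pseudocount 10 CPM, at least 50 CPM in a class). The values of 1 gene that this rule names are not reported here. Levels are not compared between genes. The members and lists were chosen with earlier results of these data known. Promoters were listed in the RefSeq table for 7 of the 10 members. Alternatives varied the gates, cell filters, scaling and depth.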

Additional observations from a re-analysis of the deposited data

Results flagged for a closer look

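Cells that entered no class also held UMIs of the 10 members, above the limit that a count of 0 allows. Their summed level was 539 CPM (3175 UMIs) in the 2722 cells with too few markers for a class, 790 CPM (2028 UMIs) in the 579 cells with markers of 2 lineages and 882 CPM (4762 UMIs) in the 863 cells removed by the cell filters. The source of these transcripts was not tested.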

How the results depend on the processing

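No paired analysis was possible because the cells carry no mouse, and for the same reason no replicate could be left out. Over 10 other settings and 2 added after the data were seen (leaving out neutrophil-gated cells with 2 or more monocyte markers, or reporter-carrying non-epithelial cells), 5 members were at least 4-fold higher in endothelial cells each time. The pathway genes past 4-fold numbered 9 to 11 in endothelial and 22 to 24 in stromal cells. Of 276 values of the ratios and counts, 227 stayed within the counting interval (counts within 1.5-fold), and 3 changed direction: the leading class of Tgfb1 and of Tgfbr2 as UMIs per cell, and the endothelial ratio of Tgfbr2 without reporter-carrying cells. The other 46 moved in the same direction, and their values follow with those of the 3. With a gate minimum of 2 markers, the log2 ratio of endothelial to other gated cells was 5.91 for Eng. With the leading class ahead by 2 markers, the log2 ratio of endothelial to other gated cells was 5.93 for Eng. With cells weighted equally (mean of per-cell CPM), the log2 ratio of endothelial to other gated cells was -0.97 for Tgfbr1, -0.14 for Tgfbr2, 5.86 for Acvrl1, 6.26 for Eng, 4.42 for Bmpr2 and 1.49 for Smad7, and that of the leading to the next class was 0.57 for Tgfb1. With median-of-ratios size factors over the classes, the log2 ratio of endothelial to other gated cells was -0.61 for Tgfb1, -1.55 for Tgfbr1, -0.67 for Tgfbr2, 4.97 for Acvrl1, 5.43 for Eng, 3.52 for Bmpr2 and 1.55 for Smad7, and that of the leading to the next class was 0.64 for Tgfbr1, 3.76 for Acvrl1 and 0.15 for Smad7. As UMIs per cell, the log2 ratio of endothelial to other gated cells was -0.85 for Tgfb1, 3.29 for Tgfb2, -1.80 for Tgfbr1, -0.91 for Tgfbr2, 4.73 for Acvrl1, 5.19 for Eng, 3.28 for Bmpr2 and 1.31 for Smad7, and that of the leading to the next class was -0.17 for Tgfb1, 1.78 for Tgfb2, 4.77 for Tgfb3, 0.085 for Tgfbr1, -0.043 for Tgfbr2, 2.95 for Acvrl1, 1.63 for Eng, 1.30 for Bmpr2 and 0.60 for Smad7. After thinning to 1000 UMIs, with cells of fewer UMIs left out, the log2 ratio of endothelial to other gated cells was -0.15 for Tgfb1, -0.76 for Tgfbr1, 5.63 for Acvrl1, 6.11 for Eng, 4.27 for Bmpr2 and 1.503 for Smad7, and that of the leading to the next class was 3.82 for Acvrl1. With non-epithelial cells of 3 or more TdTomato UMIs left out, the log2 ratio of endothelial to other gated cells was -0.21 for Tgfb1, 0.10 for Tgfbr2, 5.35 for Eng, 4.24 for Bmpr2 and 1.52 for Smad7, and that of the leading to the next class was 0.29 for Tgfbr1. Size factors shift every endothelial ratio by -0.27 and UMIs per cell by -0.51, by their construction. The cause of the other moves was not tested. Of 261 values of single levels, shares and sub-gates, 245 stayed within their interval and 16 moved outside it. Levels and shares have no direction that could change, and no ratio among these values changed direction. Not all of these 16 are listed here. The Tgfb1 share of alveolar macrophages ranged from 3.18% to 33.3%, and the Tgfb2 share of endothelial cells from 53.6% to 65.6%. Depth limits Tgfb2, Tgfb3 and Smad6, which had 234, 103 and 252 UMIs in gated cells.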
